A study of Mus musculus with 2 samples.

Results

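Cleavage and polyadenylation factors are the proteins that cut a new pre-mRNA near its 3′ end and start the poly(A) tail. The 10 genes described here were chosen by name, as subunits of the complexes CPSF (Cpsf1, Cpsf2, Cpsf3, Cpsf4), CstF (Cstf1, Cstf2, Cstf3) and CFIm (Nudt21, Cpsf6, Cpsf7). They were read by 14 of the 39429 probes of the array, which held 23587 genes that could be named. The choice used no measured value, although earlier results of these data were known when it was made.

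The study asked how loss of THOC5, a subunit of the mRNA export complex THO, alters the response of fibroblasts to serum. RNA was measured on 2 dual-colour Agilent arrays, 1 per group, both made from an immortalized mouse embryonic fibroblast (MEF) line, Rosa26ERT2 Cre: THOC5 (flox/flox), of strain C57BL/6 x B6:129 Ola. Both groups carried the floxed THOC5 alleles and the tamoxifen-activated Cre, which is expressed from the broadly active Rosa26 locus. The control cells were labelled wildtype for genotype, although their title names the same floxed line, and they received no tamoxifen. The THOC5 knockdown cells were labelled as given tamoxifen for 2 days, as the study's chromatin precipitation methods and some figure legends also state. Its cell culture methods instead describe a shorter exposure followed by growth medium and serum starvation. An effect of tamoxifen or of active Cre and an effect of THOC5 loss cannot be told apart. On each array Cy3 held RNA of serum-starved, unstimulated cells and Cy5 held RNA of the same cells after 1 h of serum (FCS), with no dye swap. Dye and serum can therefore not be told apart within an array, and with 1 array per group no p-value or replicate error can be given.

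Each array had 43020 probe spots outside the controls, of which 62.1% to 64.4% were well above background in a given channel, and none was saturated. The fibroblast markers were bright, with 7 of 7 genes well above background in all 4 channels and a summed signal of 306353 to 354129 on the control array and 262426 to 291060 on the knockdown array. Markers of epithelial cells summed to 160 to 187 and 94.5 to 124, with Cdh1 not well above background in any channel. Those of endothelial cells summed to 1011 to 1133 and 884 to 887, and those of blood cells to 408 to 555 and 422 to 474, mostly from Kdr and Csf1r. Single markers moved between the arrays: after scaling the fibroblast gene Col3a1 differed by -1.13 in Cy3 and -0.74 in Cy5 and the endothelial gene Cdh5 by -0.83 and -1.12. The epithelial gene Epcam gave 32.1 and 32.6 on the control array and was not well above background on the knockdown array. Krt8, also epithelial, differed by 0.04 and -0.90. Other markers were higher on the knockdown array. The fibroblast gene Thy1 differed by 0.25 and 0.38. The blood genes Cd68 and Ptprc were well above background on the knockdown array alone, at 24.6 and 26.0 and at 14.4 and 14.4. The part of these markers in the results was not tested. Thoc5, the targeted gene, had signals of 4808 (Cy3) and 3047 (Cy5) on the control array and of 546 and 455 on the knockdown array. Scaled between the arrays, this was a log2 difference of -2.83 in Cy3 and -2.43 in Cy5, in the direction of the labels.

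CPSF binds the AAUAAA signal upstream of the cleavage site, and its subunit CPSF73, encoded by Cpsf3, makes the cut. CstF binds U- or GU-rich RNA downstream of the site, and CFIm binds UGUA elements upstream of it and takes part in the choice between alternative sites. Because a gene can use more than 1 cleavage site, probes placed at different points of its 3′ end can read different sets of its transcripts.

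The probe sequences below are printed with their positions to show what each probe reads. Whether probe position accounts for any difference was not tested. Each is the sense strand, 5′ to 3′, and stretches of 30 bases are shown except for a probe that spans an exon junction, which is shown whole. Capitals mark AATAAA or ATTAAA, the DNA forms of the main poly(A) signals, or TGTA, the DNA form of the CFIm element. Positions are those of the array files on mm9, and exon, intron and UTR annotation of that build was not used here. The first is the single probe of Cpsf2, at chr12:103243651-103243710 on the plus strand.
Cpsf2: tgcTGTAtggttatacatttttgcaattat
The probes of Cstf1 lie 1229 bases apart on the plus strand, at chr2:172206524-172206583 for the upstream, brighter probe and at chr2:172207753-172207812 for the downstream, dimmer one.
Cstf1 upstream: cattgtcctggtAATAAAgctcagatctac
Cstf1 downstream: acactagcgtttgagccgttgcacacgtcc
The probes of Cstf3 lie 55788 bases apart on the plus strand. The dimmer one, at chr2:104449520-104449579, was assigned by the array to another Cstf3 transcript than the brighter one, at chr2:104505308-104505367. Cstf3 is known for a short transcript that ends at a poly(A) site inside an intron.
Cstf3 upstream: ttggagttgcaacaacATTAAAacagtttc
Cstf3 downstream: ttttcaagggtgtctTGTAtgtgccacttg
The brighter probe of Cpsf4 lies at chr5:145942704-145942763 on the plus strand. The dimmer one is split over chr5:145931423-145934223, a span longer than the probe, and so crosses an exon junction.
Cpsf4 downstream: tgaaatagctgacccagttggtctgcgcct
Cpsf4 across a junction: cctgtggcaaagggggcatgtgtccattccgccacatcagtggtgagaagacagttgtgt
The probe of Cpsf6 lies at chr10:116796099-116796158 on the minus strand.
Cpsf6: ttaATTAAAcaatccaaagtctctgcagat
On the sense strand alone, AATAAA or ATTAAA was present in 3 of the 14 probes, in Cstf1, Cstf3 and Cpsf6, and in 16.7% of all probes of the array. TGTA was present in 7 of 14 and in 26.8% of all probes. These letters describe the probes and do not show that a site is used.

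All 14 probes were well above background in all 4 channels, with processed signals of 195 to 8389 in control Cy3 and of 88.7 to 7299 in knockdown Cy5. Each probe was printed as 1 spot and none was marked as an outlier. The scanner software gave each log2 ratio within an array an error of 0.20 to 0.21, while probes printed many times differed between spots by a standard deviation of 0.03. Both describe the measurement of 1 hybridization and not the spread between cultures. A gene was counted as past the threshold when its brightest probe differed by 1.5-fold or more and was well above background in the signals compared.

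**Figure D1:**
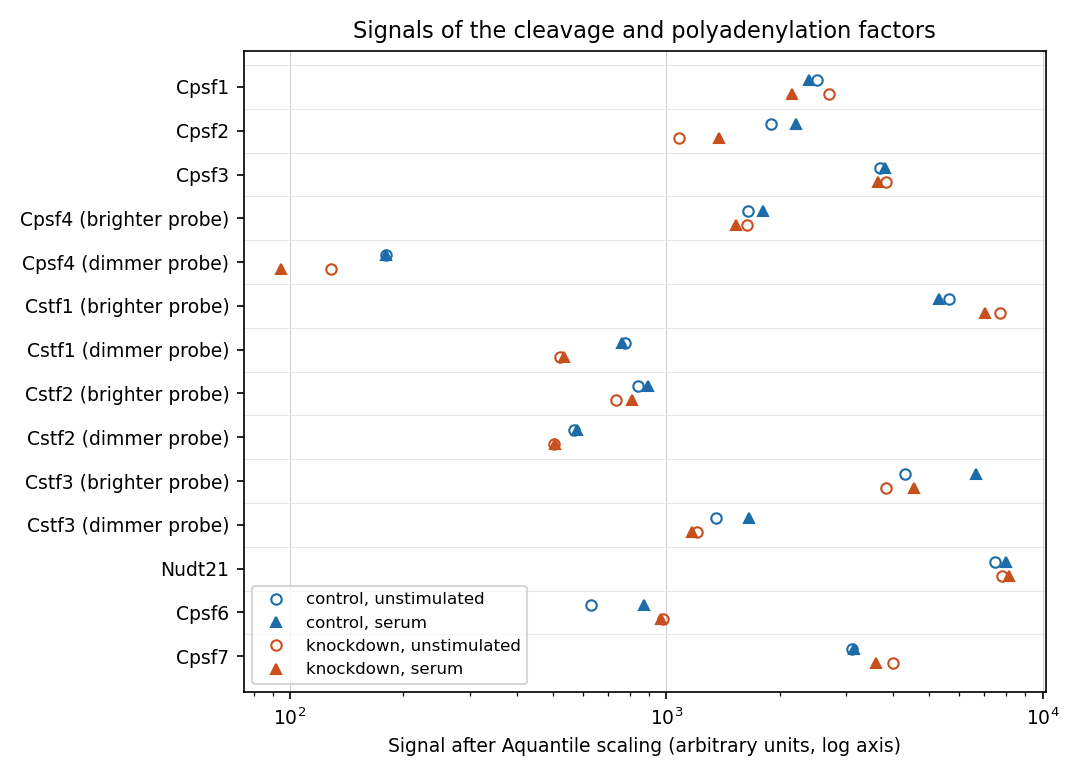
Signal of each of the 14 probes after scaling between the arrays (Aquantile, arbitrary units, log axis), with 1 symbol per channel: open circles for unstimulated and triangles for serum-treated cells, blue for the control and orange for the knockdown array. For Cpsf2 both knockdown signals lie below both control signals, while for the brighter probe of Cstf1 both lie above and for its dimmer probe both lie below. Both also lie below for each probe of Cpsf4 and Cstf2 and the dimmer probe of Cstf3, and above for Cpsf6 and Cpsf7.

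Serum for 1 h left 9 of the 10 genes within 1.5-fold on the control array, where 11.5% of all genes tested passed that threshold, and all 10 on the THOC5 knockdown array, where 3.86% passed. The exception was Cstf3, which encodes CstF-77, the subunit that bridges CstF to CPSF. Its brighter probe gave 4809 in unstimulated and 7414 in serum-treated control cells, a log2 ratio of 0.62 or 1.54-fold. On the knockdown array the same probe gave 3426 and 4078, a log2 ratio of 0.25. The dimmer Cstf3 probe gave 1500 and 1839 in control cells, a log2 ratio of 0.29, and 1093 and 1060 in knockdown cells, a log2 ratio of -0.04. On both Cstf3 probes the serum ratio was thus lower on the knockdown array, by a log2 difference of -0.37 and -0.34, and neither reached 1.5-fold. With the mean of both probes in place of the brighter one, the ratio of Cstf3 in control cells was 0.46, short of 1.5-fold.

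Cpsf6 encodes CFIm68, the larger partner of the UGUA-binding subunit. It had the second highest serum ratio on the control array, with signals of 692 and 961 and a log2 ratio of 0.47. On the knockdown array its signals were 888 and 878, a log2 ratio of -0.02. The difference between the arrays, -0.49, was the lowest of the 10 genes and short of 1.5-fold, which 7.74% of all genes tested reached. Cpsf7, which encodes the alternative partner CFIm59, gave 3474 and 3527 in control cells and 3553 and 3220 in knockdown cells, with log2 ratios of 0.02 and -0.14. Nudt21, which encodes the UGUA-binding subunit CFIm25 itself, gave 8389 and 8955 and then 6997 and 7299, with log2 ratios of 0.09 and 0.06. All 3 CFIm genes had a lower serum ratio on the knockdown array, by -0.03 to -0.49, and the software's error of a single ratio covers that of Nudt21 and Cpsf7.

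Among the CPSF genes, Cpsf2, which encodes CPSF100, a homologue of the nuclease CPSF73, was the one whose serum ratio was higher on the knockdown array. It gave 2118 and 2455 in control cells, a log2 ratio of 0.21, and 979 and 1250 in knockdown cells, a log2 ratio of 0.35. Cpsf1, which encodes the scaffold subunit CPSF160, had log2 ratios of -0.07 and -0.33. Cpsf3 had ratios of 0.04 and -0.07. For Cpsf4, which encodes the RNA-binding subunit CPSF30, the brighter probe gave 0.13 and -0.10, and the dimmer probe gave -0.00 and -0.44. In CstF, Cstf1 (CstF-50) had ratios of -0.08 and -0.12 on its brighter probe and -0.03 and 0.04 on its dimmer one. Cstf2 (CstF-64, the RNA-binding subunit) had 0.09 and 0.14, then 0.02 and 0.00.

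Over the 10 genes the median serum log2 ratio was 0.09 on the control array, with 8 genes above 0, and -0.04 on the knockdown array, with 4 above 0. Over all genes the medians were -0.03 and -0.02, and 45.8% and 46.6% of genes were above 0. The serum ratio was lower on the knockdown array for 8 of the 10 genes, with a median difference of -0.14 against 0.01 for all genes, of which 47.8% were lower. No member passed 1.5-fold in this difference. A log2 ratio of at least 2 times its software error was given by 2 of the 14 probes on the control array, for Cstf3 and Cpsf6, and by 1 of 14 on the knockdown array, the dimmer probe of Cpsf4. Of all probes well above background in both channels, 17.9% did so on the control array and 7.64% on the knockdown array, so the members' counts are near these shares.

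**Figure D2:**
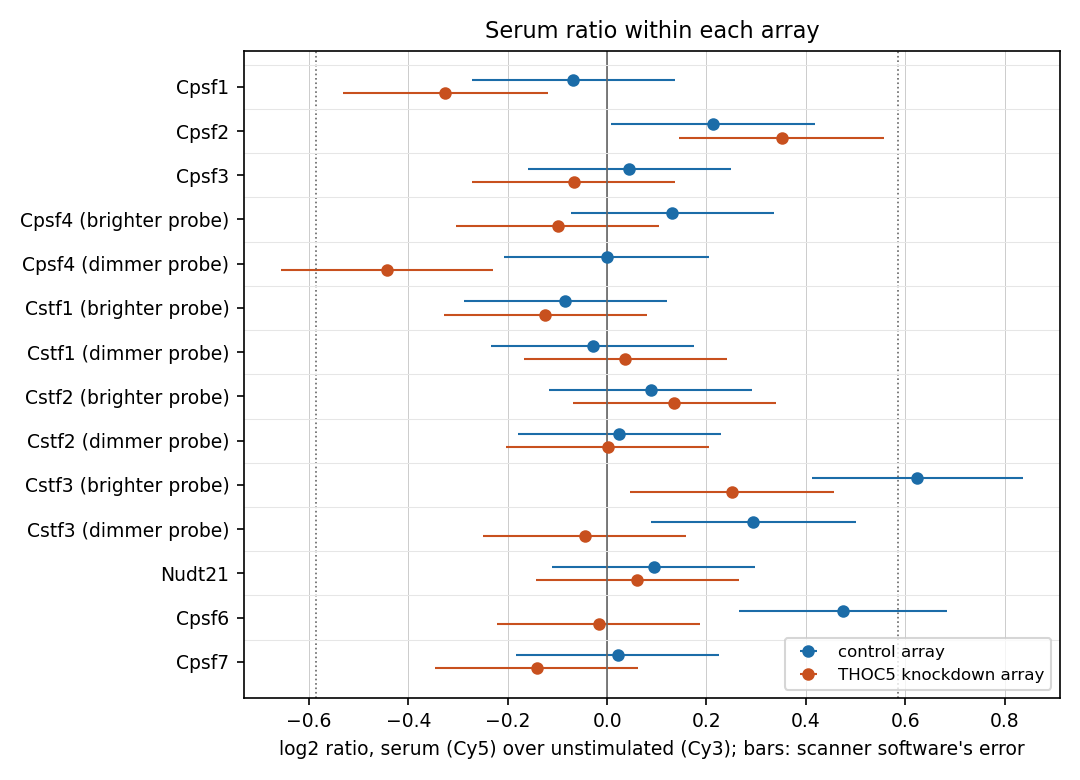
Log2 ratio of serum-treated over unstimulated signal within the control array (blue) and the THOC5 knockdown array (orange) for each probe, with bars for the error the scanner software gives and dotted lines at 1.5-fold. Cstf3 at 0.62 on the control array is the one point past 1.5-fold, and both Cstf3 probes and Cpsf6 lie further left on the knockdown array.

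To compare the arrays, each channel of the knockdown array was set against the same channel of the control array after scaling (limma, Aquantile). This comparison rests on 2 hybridizations and is less precise than a ratio within an array. In these bulk samples, fewer cells of a type and less RNA per cell cannot be told apart. In unstimulated cells (Cy3), 2 of the 10 genes were 1.5-fold or more apart, Cpsf2 lower and Cpsf6 higher, where 9.83% of all genes tested were that far apart. After serum (Cy5), 1 of 10 was, Cpsf2 lower, where 11.3% of all genes were. At 10 genes, these counts do not set the factors apart from all genes. The median log2 difference of the 10 genes was 0.06 in Cy3 and -0.10 in Cy5, against -0.01 and -0.00 over all genes.

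Cpsf2 was the gene with a difference of that size in both channels. Its processed signals of 2118 and 2455 on the control array stood against 979 and 1250 on the knockdown array. Before scaling, neither knockdown signal reached a control signal, but this is not particular to Cpsf2. It also held for the brightest probes of Cpsf1, Cpsf3, Cpsf4, Cstf2, Cstf3 and Nudt21. Without scaling, the median difference over all probes was -0.25 in Cy3 and -0.26 in Cy5. After scaling the log2 difference was -0.81 in Cy3, or 1.76-fold lower, and -0.68 in Cy5, or 1.60-fold lower. Over the scalings and background corrections tried it ranged from -1.11 to -0.77 in Cy3 and from -0.97 to -0.64 in Cy5, past 1.5-fold in each. On their brightest probes the other CPSF genes were closer to 0. Cpsf1, with signals of 2799 and 2669 in control and 2421 and 1933 in knockdown cells, differed by 0.11 in Cy3 and -0.15 in Cy5. Cpsf3, with 4145 and 4276, then 3404 and 3250, differed by 0.05 and -0.06. The brighter Cpsf4 probe, with 1821 and 1995, then 1472 and 1374, differed by -0.01 and -0.24, while the dimmer one, described with the probe pairs, differed by -0.49 and -0.93. With the mean of both probes, Cpsf4 differed by -0.59 in Cy5 and passed 1.5-fold. Without scaling between the arrays, the Cy3 differences of Cpsf1 and Cpsf3 were below 0, at -0.21 and -0.28. That of Cpsf3 was also below 0 with scaling to the median of each channel (-0.013), and that of the brighter Cpsf4 probe was above 0 with normexp and loess (0.014).

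After Aquantile scaling the CFIm genes had log2 differences above 0 in both channels, those of Nudt21 close to 0. Cpsf6 differed by 0.64 in Cy3, or 1.56-fold, and by 0.15 in Cy5. Cpsf7 differed by 0.36 and 0.20, and Nudt21 by 0.06 and 0.03. In Cy5 the difference of Nudt21 was below 0 under each of the other scalings, at -0.014 with the 75th percentile and -0.025 with the median of each channel, and also at -0.026 with normexp and loess. Without scaling, the median over all probes was -0.25 in Cy3 and -0.26 in Cy5. Cpsf6 then differed by 0.36 and -0.13, Cpsf7 by 0.03 and -0.13, and Nudt21 by -0.26 and -0.30, so the direction of Nudt21 in Cy3 and of Cpsf6 and Cpsf7 in Cy5 turned with that choice.

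Within CstF, Cstf3 and Cstf2 had differences below 0 on each probe, while the direction of Cstf1 depended on the probe. Its brighter probe differed by 0.45 in Cy3 and 0.41 in Cy5, its dimmer one by -0.57 and -0.51, and the mean of both by -0.06 and -0.05. The brighter probe of Cstf3 differed by -0.17 in Cy3 and -0.54 in Cy5, and the dimmer one by -0.17 and -0.51, so both were lower after serum by nearly the same amount. Scaled to the median of each channel, the Cy5 difference of the brighter probe was -0.59 and passed 1.5-fold, as it did without scaling at -0.86. Cstf2, with signals of 931 and 989 in control and 668 and 734 in knockdown cells on its brighter probe, differed by -0.19 and -0.15. Its dimmer probe, 367 bases downstream, with 629 and 639, then 459 and 459, differed by -0.17 and -0.20.

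**Figure D3:**
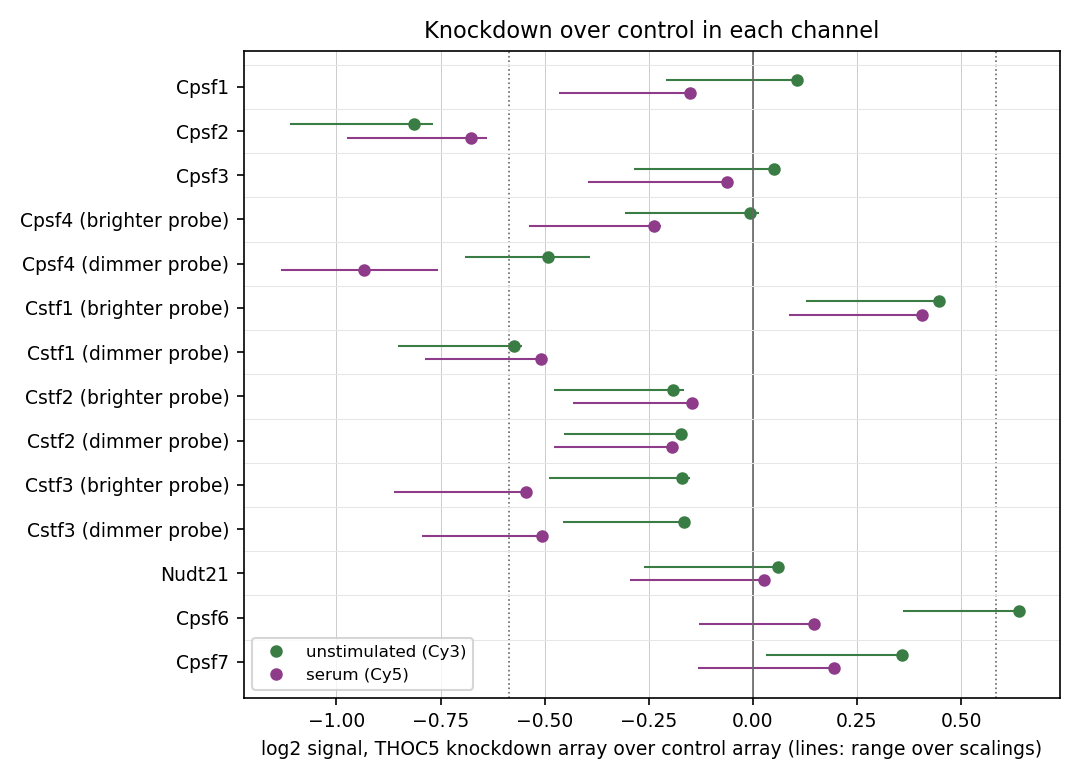
Log2 signal on the THOC5 knockdown array over the control array for each probe, in unstimulated cells (Cy3, green) and after serum (Cy5, purple), with lines for the range over the scalings tried and dotted lines at 1.5-fold. Cpsf2 lies left of 1.5-fold in both channels under each scaling, and the brighter and dimmer Cstf1 probes lie on opposite sides of 0.

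The probes of 1 gene did not always give the same answer, and Cstf1 was the clearest case. Its upstream probe, which holds AATAAA, gave 6285 and 5928 on the control array and 6866 and 6298 on the knockdown array. Its downstream probe, 1229 bases further along and assigned by the array to another transcript record, gave 857 and 840 and then 475 and 487. The scaled difference of each probe was short of 1.5-fold in both channels. The opposite directions held under each scaling tried, in which the upstream probe ranged from 0.13 to 0.46 in Cy3 and the downstream one from -0.85 to -0.55. The gap between the probes was 1.02 in Cy3 and 0.91 in Cy5 on the log2 scale. Over the scalings and background corrections tried the gap ranged from 0.98 to 1.02 in Cy3 and from 0.87 to 0.91 in Cy5.

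Cpsf4 also had probes that stood apart. The probe across the exon junction gave 195 and 194 on the control array and 120 and 88.7 on the knockdown array, a scaled difference of -0.49 in Cy3 and -0.93 in Cy5. The brighter probe lay above it by 0.48 in Cy3 and 0.69 in Cy5. With normexp background correction the gap in Cy5 was 0.53, short of 1.5-fold. The probes of Cstf2 were -0.02 and 0.05 apart and those of Cstf3 -0.00 and -0.04.

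Probes 1.5-fold or more apart were thus found for 1 of the 4 genes in Cy3 and 2 of 4 in Cy5. Of the 3095 genes with 2 probes well above background in all 4 channels, 14.7% and 12.1% had probes that far apart, and a gap of 0.73 in Cy3 and 0.64 in Cy5 was passed by the 10% of genes with the widest gaps. With the same Aquantile scaling, the Cstf1 gaps exceeded both values, and that of Cpsf4 exceeded the latter. For the serum ratios, none of the 4 genes had probes 1.5-fold apart on the control array (7.21% of genes), on the knockdown array (3.78%) or in the difference (6.24%). The widest of these gaps within an array were 0.34 for Cpsf4 on the knockdown array and 0.33 for Cstf3 on the control array.

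**Figure D4:**
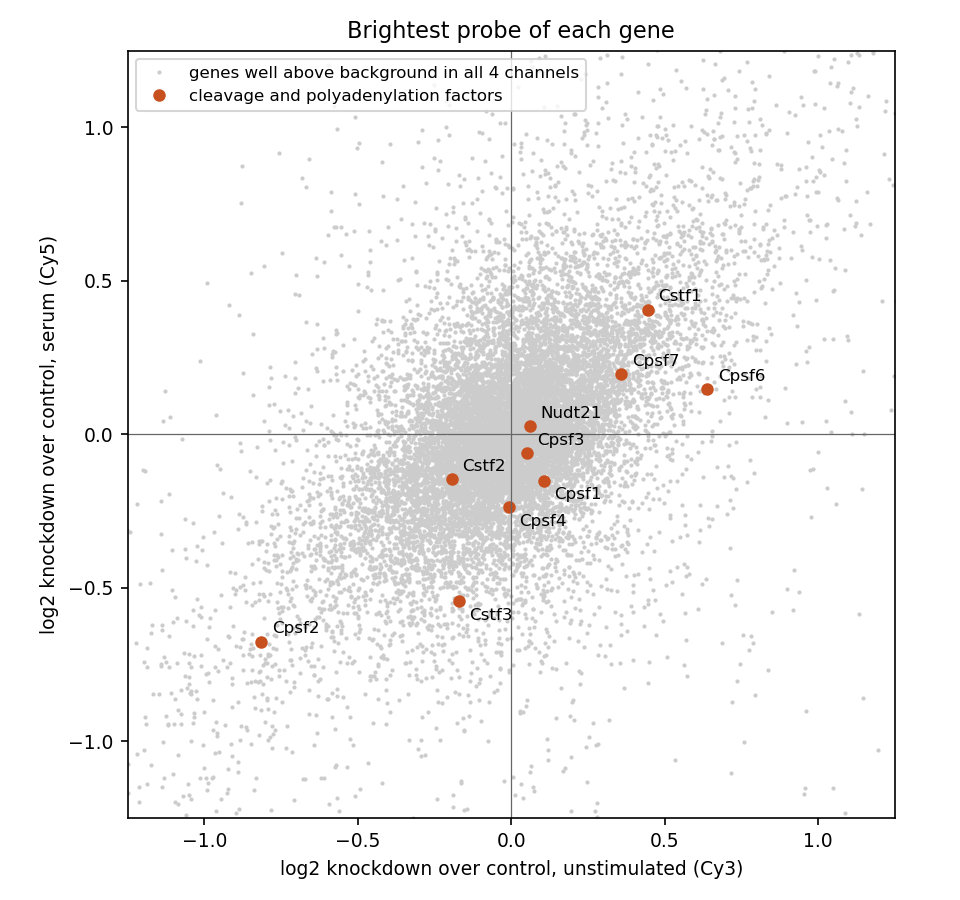
Log2 knockdown over control in unstimulated cells (Cy3, horizontal) against that after serum (Cy5, vertical) for the brightest probe of each gene, with grey points for the genes well above background in all 4 channels (15261, of which 319 lie outside the axes) and the 10 factors in orange. Cpsf2 at -0.81 and -0.68 lies apart from the other 9, and Cstf1, Cpsf7 and Cpsf6 lie to the upper right.

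Of 10 other core factors of 3′ end processing, listed with earlier results known, none but Wdr33 was 1.5-fold apart between the arrays on its brightest probe in either channel. Wdr33 encodes the CPSF subunit that contacts AAUAAA. Its brightest probe gave 2314 and 2471 in control and 1219 and 1339 in knockdown cells, a scaled log2 difference of -0.61 in Cy3 and -0.57 in Cy5. Its other probe, assigned to another transcript, differed by 0.19 and 0.03. Rbbp6, a large protein needed for cleavage, had a brightest probe that differed by 0.39 and -0.05. Its dimmer probes, assigned by the array to another transcript, differed by -2.08 and -1.18 and by -1.30 and -1.06. Their signals were 103 and 223 in control Cy3 and 21.9 and 78.8 in knockdown Cy3. The Rbbp6 probes differed in sign in Cy3 and were all below 0 in Cy5.

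Papola, the main nuclear poly(A) polymerase, differed by 0.55 in Cy3 and 0.19 in Cy5, and its relative Papolg by -0.43 and 0.06. Fip1l1, the CPSF subunit that recruits the polymerase, differed by 0.35 and 0.30 on its brightest probe and by 0.72 and 0.16 on a dimmer one. Pabpn1, the nuclear poly(A)-binding protein, differed by 0.22 and 0.18, and the scaffold protein gene Sympk by 0.03 and 0.07. Cstf2t, a paralogue of Cstf2, differed by -0.15 and 0.18. Clp1 and Pcf11, of cleavage factor II, differed by -0.02 and 0.13, and by 0.32 and -0.17. The median of the 10 was 0.13 in Cy3 and 0.10 in Cy5.

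For serum, Pcf11 gave 63.7 and 154 in control cells, a log2 ratio of 1.27, and 70.2 and 121 in knockdown cells, a ratio of 0.79. Rbbp6 had ratios of 0.60 and 0.16 on its brightest probe, while its dimmer probes had -0.22 and 0.68, and 0.24 and 0.48, higher on the knockdown array. By their brightest probes, these were the 2 genes of the 10 past 1.5-fold on the control array, and Pcf11 was the 1 gene past it on the knockdown array. The median serum ratio of the 10 was 0.04 on each array.

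In the Integrator complex, which cuts the 3′ ends of small nuclear RNAs and holds homologues of CPSF73 and CPSF100, 11 of 12 genes were measured and none was past 1.5-fold in any comparison. Their median difference between the arrays was 0.01 in Cy3 and -0.07 in Cy5. Of 5 factors for the 3′ ends of histone mRNAs, Casp8ap2 (FLASH) was the 1 past 1.5-fold, with a difference of 0.66 in Cy5 and 0.52 in Cy3, and the median of the 5 was 0.00 in Cy3 and 0.20 in Cy5.

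**Figure D5:**
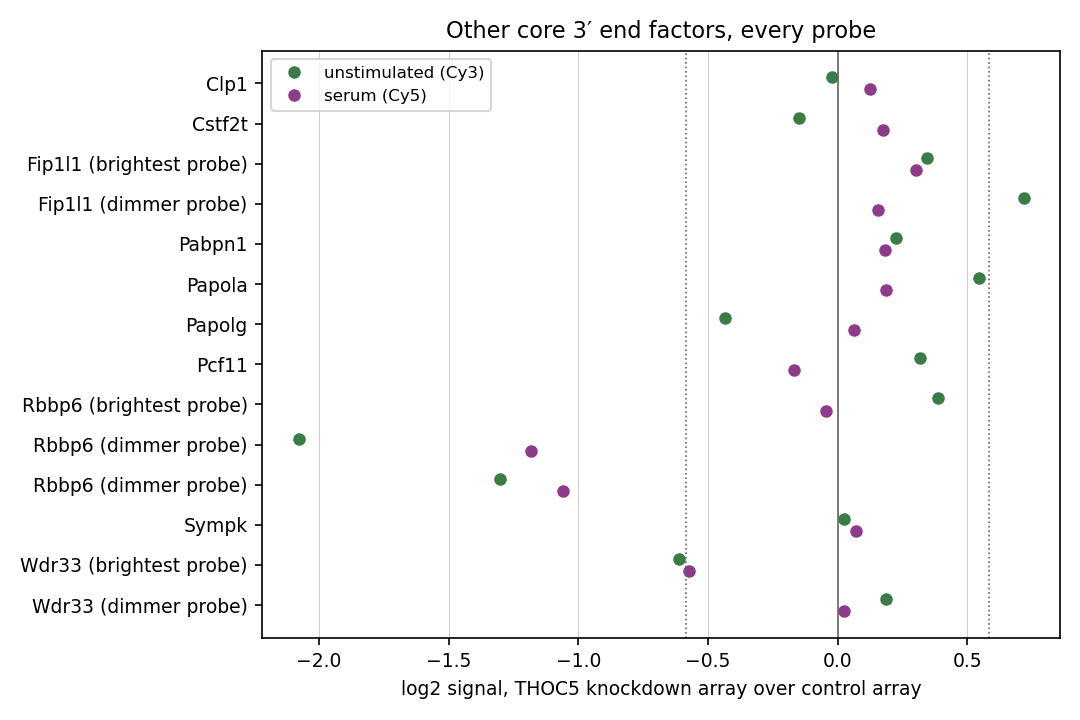
Log2 signal on the THOC5 knockdown array over the control array for every probe of the 10 other core 3′ end factors, in unstimulated cells (Cy3, green) and after serum (Cy5, purple), with dotted lines at 1.5-fold. The dimmer Rbbp6 probes lie furthest left, from -2.08 to -1.06, while the brightest Rbbp6 probe lies at 0.39 and -0.05.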

How the data were processed

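Total RNA of 2 groups was measured on 2 dual-colour Agilent arrays on 1 slide. The authors deposited the text output of Agilent Feature Extraction 10.7.3.1. Per the file headers, its processed intensities had been background-subtracted and dye-normalized array by array, and its log ratio and ratio error are on the log10 scale. The authors also deposited a series table of log10 values, which equalled the size of the scanner's ratio and held 0 values below 0, so its sign was lost.

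Outlier spots were left out, and signals were converted to log2. Serum ratios were Cy5 over Cy3 within an array. Arrays were scaled with limma 3.58.1 (Aquantile; R 4.3.3). The 1.5-fold rule was tested on simulated data, without this scaling, which was itself not tested. A gene with several probes was counted by its brightest one, on average over the 4 channels. Genes were array names that RefSeq (GRCm38.p6) lists as symbol or synonym, 30836 of 39429 probes. All members with every probe, the 10 other core factors, Thoc5, and Integrator and histone factors past 1.5-fold were named. Members and lists were chosen with earlier results of these data known. Alternatives were normexp (offset 50) with loess, no dye normalization, other scalings, centring, one spread for both arrays, the series table, outliers kept, the mean of all probes, no signal filter, and 1.3- or 2-fold. The number of columns not mapped to a sample was 0.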

Additional observations from a re-analysis of the deposited data

Results flagged for a closer look

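For 6 of the 14 probes the serum log2 ratio had opposite signs on the 2 arrays, as it had for 32.2% of all probes well above background in all 4 channels. With 1 array per group these differences were not tested. The ratio was above 0 on the control array and below 0 on the THOC5 knockdown array for the dimmer probe of Cstf3 (0.29 and -0.04, a difference of -0.34), Cpsf6 (0.47 and -0.02, a difference of -0.49), the brighter probe of Cpsf4 (0.13 and -0.10, a difference of -0.23), Cpsf7 (0.02 and -0.14, a difference of -0.16) and Cpsf3 (0.04 and -0.07, a difference of -0.11). It ran the other way for the dimmer probe of Cstf1 (-0.03 and 0.04, a difference of 0.065). On the knockdown array each of these 6 ratios was smaller than the error the scanner software gives it, and on the control array those of Cstf3 and Cpsf6 were larger.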

How the results depend on the processing

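No paired analysis was possible because each group had 1 array. Of 350 values of a gene or of a gap between probes recomputed under the alternatives, 323 kept their direction, and of 30 values past 1.5-fold all kept it and 27 stayed past 1.5-fold. The median serum ratio on the control array (0.09) was 0.15 with normexp and loess, 0.94 without dye normalization and 0.061 with the mean of all probes. On the knockdown array (-0.04) it was -0.00075 with normexp and 0.72 without dye normalization, and the median difference of these ratios (-0.14) was -0.21 without it. Leaving out dye normalization moved the median of all probes to 0.83 and 0.74, so the 10 and 9 genes then past 1.5-fold moved with the whole array. The count on the control array (1) was 0 with the mean of all probes, 2 at 1.3-fold and 0 at 2-fold. The count for the difference (0) was 1 at 1.3-fold. Between arrays, without scaling, the median was -0.27 in Cy3 (scaled, 0.06) and -0.41 in Cy5 (scaled, -0.10). The count in Cy3 (2) was 1 without scaling, where Cpsf6 gave 0.36, 3 at 1.3-fold and 0 at 2-fold. The count in Cy5 (1) was 2 with scaling to the median, without scaling, with the mean of all probes or over probes, 3 at 1.3-fold and 0 at 2-fold. The count of genes with probes 1.5-fold apart in Cy5 (2) was 1 with normexp. The causes of the other changes were not tested. A single array per group, with no dye swap, limits the precision of each value.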
